A study of Mus musculus with 4 samples.

Results

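Chat, which encodes choline acetyltransferase, and Th, which encodes tyrosine hydroxylase, were the 2 genes of transmitter synthesis for acetylcholine and dopamine among the 300 genes of a Xenium panel applied to mouse retina. They were chosen by name, and both columns were read across all 131379 deposited cells. Xenium counts single RNA molecules in place as fluorescent puncta, and assigns them to outlined cells. The material was 5 retinas of unmanipulated wild-type C57BL/6 mice, cut en face into sections 20 µm thick. The sources used here give no age, and the study had no treated or mutant group, so the comparisons below are between cell types, between cells with and without a gene, and between positions in the retina. All 131379 cells were of the class retinal ganglion cell (RGC), the output neurons of the eye, in 45 types named by the authors. The retinas held 35099, 41048, 13127, 27734 and 14371 cells, with median depths of 285 to 326 puncta per cell, and no cell identifier occurred more than once.

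Choline acetyltransferase joins choline and acetyl-CoA into acetylcholine. In the mammalian retina its classic carriers are the starburst amacrine cells, which also release GABA and shape the responses of direction-selective ganglion cells, and a displaced set of them lies among the ganglion cells. Tyrosine hydroxylase carries out the rate-limiting step of dopamine synthesis. Its classic retinal carrier is the dopaminergic amacrine cell, whose release follows light and which receives input from intrinsically photosensitive ganglion cells. Those ganglion cells make the photopigment melanopsin, encoded by Opn4, and the M1 types among them carry the most of it.

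The 2 pathways were thinly covered by the panel. Of 7 listed genes of acetylcholine synthesis, transport and breakdown, 1 (Chat) was measured, and of 13 genes of dopamine synthesis and handling, 1 (Th). None of the 18 listed acetylcholine receptor genes or the 5 dopamine receptor genes was on the panel. The vesicular and plasma membrane transporters that define a cholinergic or a dopaminergic neuron could therefore not be set beside the synthesis genes. Of the markers listed for starburst cells, Isl1 and Tfap2b were measured beside Chat, and of those for dopaminergic amacrine cells, Nr4a2 and Slc17a8 beside Th. All of these can also be made by other retinal cells. Isl1 and Tfap2b together came to 7.52 ± 0.41 puncta per 1000 puncta in cells with Chat and 5.95 ± 0.17 in cells without (SD, n = 5).

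Th stood out in the M1 melanopsin types. Over all cells of retinas 1 to 5 it gave 0.0241, 0.0252, 0.0384, 0.0311 and 0.0270 puncta per cell. In 40_M1dup it reached 0.288, 0.252, 0.382, 0.320 and 0.161 puncta per cell in retinas 1 to 5. In 33_M1 it reached 0.158, 0.212, 0.161, 0.180 and 0.0994. Each of these 10 values lay above the highest mean of any other type, which was 0.0586 ± 0.0415 in 41_AlphaONT (SD, n = 5). Among single values, 41_AlphaONT in retina 3 reached 0.126, above the 0.0994 of 33_M1 in retina 5. The means were 0.280 ± 0.082 in 40_M1dup and 0.162 ± 0.041 in 33_M1, against a median over the 45 types of 0.0269. Both M1 types together had 0.20 ± 0.04 Th puncta per cell, against 0.0262 ± 0.0054 in the other 43 types, a ratio of 7.83 ± 2.08 that ran from 5.03 to 10.3 across the retinas. They made up 1.67% of all cells and held 12.4% of all Th puncta. Puncta were found in 10.2% ± 2.1 of M1 cells and 2.23% ± 0.46 of other cells.

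Set against the average of the remaining types, Th was higher in 4 types and lower in 5 of 45 (edgeR quasi-likelihood, blocked by retina, Benjamini-Hochberg over all pairs of type and gene, threshold 0.05). Over all 13455 pairs, 30.4% were called higher and 38.6% lower, so most genes of the panel were called in more types than Th was. The log2 change was 3.21 ± 0.18 in 40_M1dup (SE) and 2.69 ± 0.16 in 33_M1. These were the 12th and 15th largest changes of any gene in those types. Opn4, the melanopsin gene, led both with 7.50 ± 0.06 in 40_M1dup and 6.30 ± 0.07 in 33_M1. The other calls were close to the threshold: Th rose by 0.66 ± 0.31 in 41_AlphaONT (edgeR adjusted p = 0.0495) and by 0.46 ± 0.20 in 32_F_Novel (edgeR adjusted p = 0.0330). The sources do not say which genes the authors used to assign types. Chat, Th or Opn4 may be among them, so these values describe the types.

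Below the M1 types the order of Th was flat. After 41_AlphaONT came 44_Novel at 0.0495 ± 0.0372, 32_F_Novel at 0.0441 ± 0.0280 and 20_Novel at 0.0402 ± 0.0166 puncta per cell. The lowest were 39_Novel at 0.0168 ± 0.0044, 36_Novel at 0.0167 ± 0.0051, 09_Tbr1_Novel at 0.0156 ± 0.0076 and 35_Novel at 0.0137 ± 0.0078. Of 44 steps between neighbours in this order, 2 exceeded the SD of their paired differences over the retinas. The other melanopsin types, 31_M2 and 22_M5, together had 0.0314 ± 0.0161 Th puncta per cell. The low types were 36_Novel (log2 change -0.93 ± 0.28), 39_Novel (-0.71 ± 0.32), 09_Tbr1_Novel (-0.62 ± 0.29), 17_Tbr1_S1 (-0.54 ± 0.24) and 34_Novel (-0.52 ± 0.24), and this count of 5 was 2, 2, 2, 1 and 4 when retinas 1 to 5 were left out in turn.

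**Figure D1:**
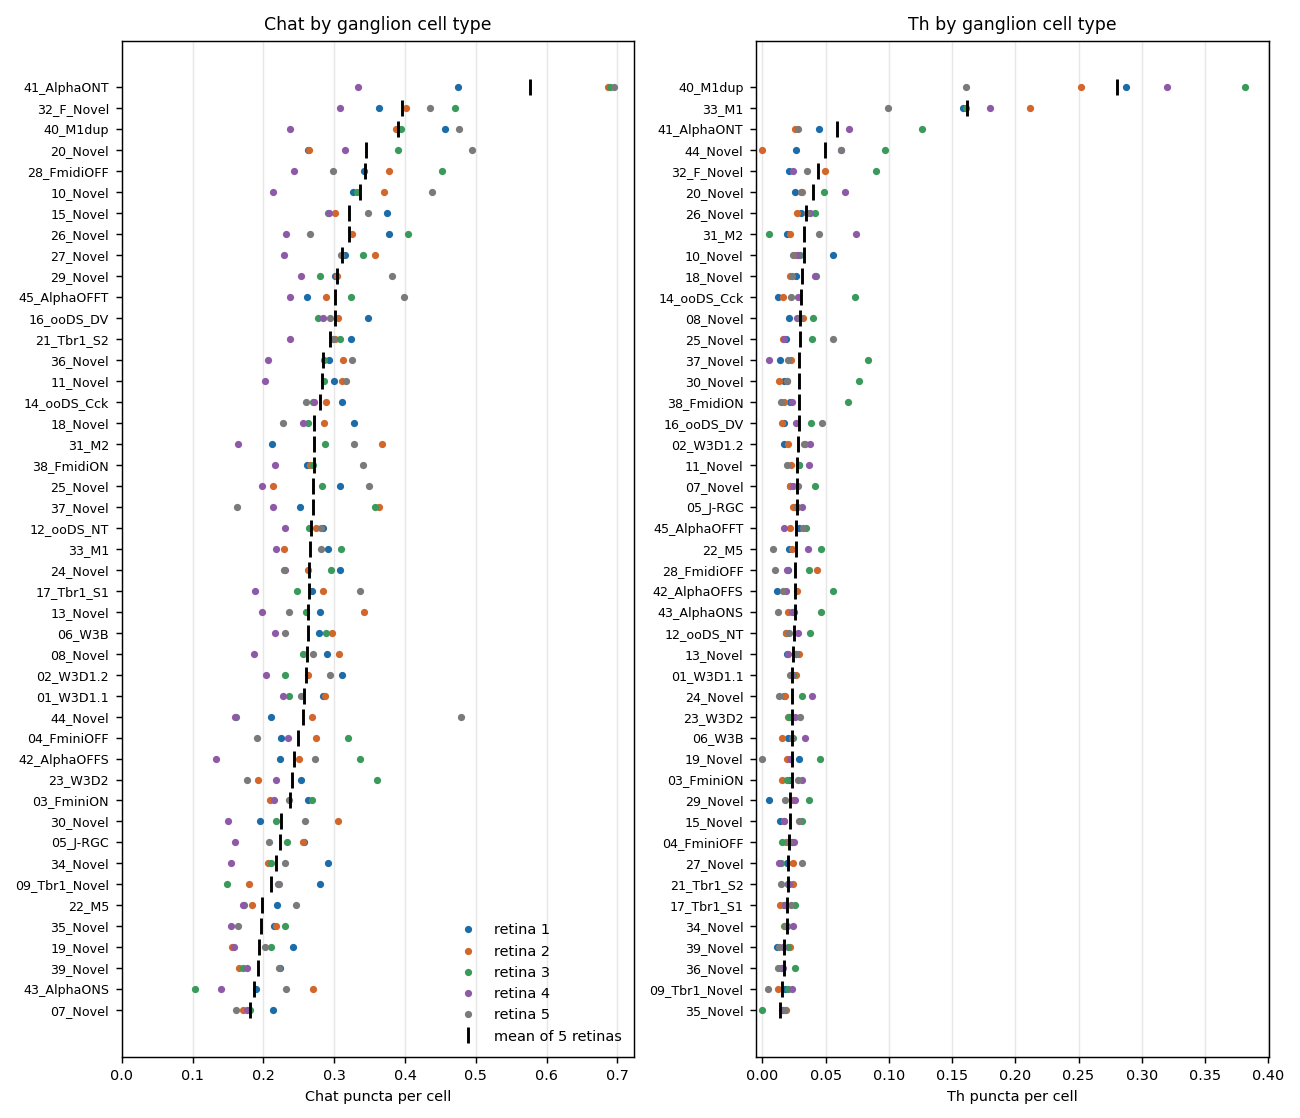
Puncta per cell of Chat (left) and Th (right) in each of 45 ganglion cell types, ordered by the mean of 5 retinas (black bar), with 1 point per retina. The means of Th set 40_M1dup and 33_M1 apart from all other types, while Chat declines gradually from 41_AlphaONT at 0.576 to 07_Novel at 0.181.

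The plot of puncta per cell by type shows the 2 shapes side by side. Within 33_M1, the mean of Th was higher in each class of cells with more Opn4 puncta of their own, a description for which no test was run. Cells of 33_M1 with no Opn4 puncta had 0.0625 ± 0.0446 Th puncta per cell, those with 1 to 4 had 0.110 ± 0.027, those with 5 to 9 had 0.220 ± 0.076 and those with 10 or more had 0.471 ± 0.336 (SD, n = 5). These classes of 33_M1 held 621, 344, 313 and 190 cells, and the last had as few as 10 cells in a retina. Cells with more puncta of one gene can hold more of all genes. Per 1000 puncta the 4 levels were 0.301 ± 0.201, 0.534 ± 0.154, 0.712 ± 0.228 and 1.28 ± 0.98. In 40_M1dup the levels overlapped throughout, with 0.241 ± 0.344 puncta per cell at no Opn4 and 0.333 ± 0.146 at 10 or more. Its 4 classes held 151, 108, 148 and 322 cells.

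**Figure D2:**
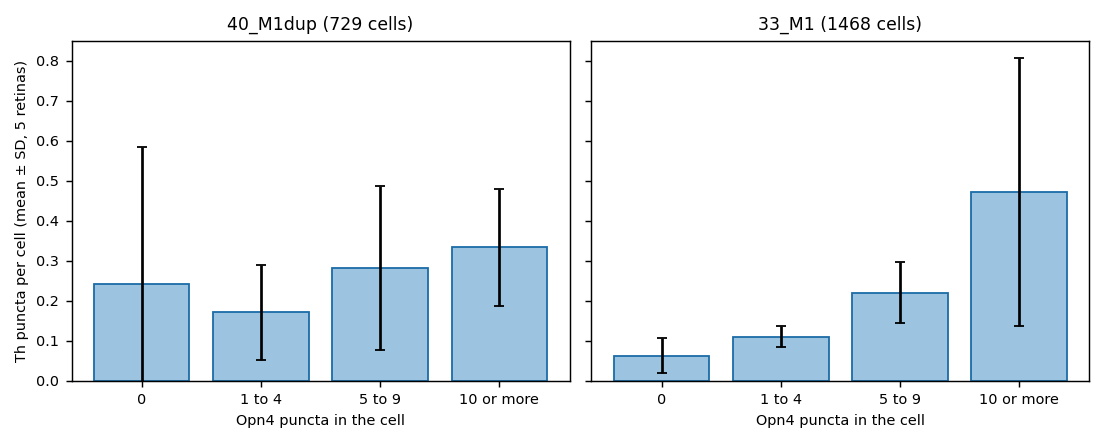
Th puncta per cell (y axis, mean of 5 retinas, error bars SD) in M1 cells grouped by their own Opn4 puncta count (x axis), for 40_M1dup (left) and 33_M1 (right). The bars climb from 0.0625 to 0.471 in 33_M1, and in 40_M1dup the error bars of the 4 groups overlap.

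High Th counts were rare. Of all cells, 2957 (2.25%) held Th, 328 held 2 or more puncta and 39 held 5 or more, up to 22. Of those 39 cells, 23 were M1 cells and 20 of these held Opn4. The median over the 23 was 11 Opn4 puncta. The other 16 lay in 11 types and none held Opn4. Their median was 2 Gad1 puncta, against 1 in the 23 M1 cells, and they included the cell with 22 Th puncta. Gad1 was found in 66.7% of the 39 cells and in 35.6% of all other cells, and Tfap2b in 48.7% and 30.7%. In the 39 cells the median counts were 1 for Rbpms, an RNA-binding protein used as a pan-ganglion-cell marker, and 3 for Slc17a6, the vesicular glutamate transporter of ganglion cells. In all other cells those medians were 6 and 11. For the 23 M1 cells among the 39, M1 cells are a nearer reference, given here as means per cell and not as medians. M1 cells with Th averaged 4.26 ± 0.53 Rbpms and 5.99 ± 0.73 Slc17a6 puncta per cell. M1 cells without Th averaged 3.61 ± 0.46 and 5.18 ± 0.51 (SD, n = 5). The median depth of the 39 cells was 287 puncta, against 304 in all other cells. The part of these cells in the type levels was not tested.

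Cells with Th were compared with cells without it, whatever their type, with the retina as a block and Th left out. Of 299 genes, 65 (21.7%) were higher and 52 (17.4%) lower with Th (edgeR quasi-likelihood, adjusted over the 299). Median depth was 331 puncta in the 2957 cells with Th and 303 in the 128422 without. The leading gene was Opn4, with 2.61, 2.51, 1.75, 1.61 and 1.56 puncta per 1000 puncta in cells with Th of retinas 1 to 5, against 0.549, 0.525, 0.523, 0.506 and 0.497 in cells without. The groups did not overlap, and the log2 change was 1.91 ± 0.10 (SE, edgeR adjusted p = 2.87e-08). Genes of the M1 types came with it: the collagen gene Col9a1 (1.45 ± 0.12), Zcchc12 (1.27 ± 0.08), the T-box factor genes Eomes (0.96 ± 0.08) and Tbx20 (0.84 ± 0.06), and the surface glycoprotein gene Cd24a (0.95 ± 0.04). Eomes and Tbx20 encode transcription factors that mark melanopsin cells.

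Further leading genes with Th followed. The neurokinin B precursor gene Tac2 rose by 0.95 ± 0.07 on the log2 scale, the neuronal nitric oxide synthase gene Nos1 by 0.87 ± 0.10 and the secreted synaptic protein gene C1ql2 by 0.83 ± 0.08. The transcript A730046J19Rik rose by 0.86 ± 0.15. Of 20 amacrine genes measured, 7 were higher (C1ql2, Tfap2b, Gad2, Gad1, Tfap2a, Slc32a1 and Prox1), beside 21.7% of all 299 genes. Pax6 and Ppp1r17 were lower, beside 17.4% of all 299 genes. The median log2 change of the 20 genes was 0.13, against 0.01 over all 299. Their summed level ran from 64.7 to 71.0 puncta per 1000 puncta in cells with Th and from 62.3 to 65.5 in cells without. Nr4a2, a nuclear receptor gene of dopaminergic amacrine cells, did not pass the test at 0.48 ± 0.18 (edgeR adjusted p = 0.054). Slc17a8, which encodes the vesicular glutamate transporter VGLUT3, was at -0.05 ± 0.11 (edgeR adjusted p = 0.756). Their 2 levels summed to 0.429 ± 0.079 puncta per 1000 puncta with Th and 0.347 ± 0.036 without. The microglial gene Tmem119 also rose, by 0.80 ± 0.19.

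Most genes of the ganglion cell list went the other way. Of its 7 genes, 5 were lower with Th (Nefh, Rbpms, Slc17a6, Isl2 and Pou4f3), beside 17.4% of all 299 genes. Ebf3 alone was higher, beside 21.7%. In the fit within the M1 types given below, Nefh, Rbpms, Slc17a6 and Isl2 were not called and Ebf3 was higher. The POU factor gene Pou4f3 had the largest fall among the genes named by rule, by 0.33 ± 0.05 on the log2 scale. Npnt fell by 0.31 ± 0.11, the AP-2 factor gene Tfap2d by 0.27 ± 0.06, Sh3bgr by 0.25 ± 0.03 and the sodium channel beta subunit gene Scn4b by 0.24 ± 0.06. Syt2, a fast calcium sensor of vesicle release, fell by 0.22 ± 0.05. Smaller falls were those of Syndig1l, Pcdh17, Vamp1 and the LIM factor gene Isl2, between 0.18 and 0.22. Of the other lists, 1 of 15 bipolar genes (Prkca), 2 of 7 Müller glia genes (Slc1a3 and Rlbp1) and 2 of 4 rod genes (Gnat1 and Gngt1) were higher, beside 21.7% of all genes, and no gene of the cone, astrocyte or endothelium lists was called.

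The M1 cells and the rest were then fitted apart, a split chosen after the data were seen. Within the M1 types, 24 of 217 genes (11.1%) were called, 21 of them (9.68%) higher with Th. This fit had type and retina as blocks, since 40_M1dup made up 44.7% of the 226 M1 cells with Th and 31.9% of the 1971 without, and both types of a retina entered it as separate sums. Opn4 was still higher there, with a log2 change of 0.39 ± 0.09. In 33_M1 it had 19.2 ± 7.4 puncta per 1000 puncta with Th and 14.0 ± 2.9 without, and in 40_M1dup 30.3 ± 4.6 with Th and 27.2 ± 6.0 without (SD, n = 5). The values of different retinas overlapped in both types. Tbx20 (0.64 ± 0.12), Cd24a (0.70 ± 0.14), Col9a1 (0.59 ± 0.15), Zcchc12 (0.49 ± 0.09) and Eomes (0.46 ± 0.07) rose too, and Nos1 rose by 0.96 ± 0.26. Spp1, the osteopontin gene of alpha ganglion cells, fell by 1.11 ± 0.30 and the ETS factor gene Etv1 by 1.01 ± 0.29. Median depth was 306 puncta in M1 cells with Th and 242 in those without.

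Outside the M1 types, 76 of 299 genes (25.4%) were called, 40 of them higher (13.4%). Opn4 was at 0.01 ± 0.11 there (edgeR adjusted p = 0.936) and Col9a1 at 0.09 ± 0.15 (edgeR adjusted p = 0.669). The leading genes were Tac2 (0.82 ± 0.07), the C1q-like genes C1ql3 (0.80 ± 0.09) and C1ql2 (0.76 ± 0.08), Tmem119 (0.69 ± 0.21) and Nos1 (0.68 ± 0.09). Gad1, which makes GABA from glutamate, was up by 0.45 ± 0.05 and the AP-2 factor gene Tfap2b by 0.56 ± 0.06. Rbpms fell by 0.08 ± 0.02 and Slc17a6 by 0.09 ± 0.02. Within the M1 types these 2 genes were at 0.01 ± 0.08 and 0.01 ± 0.06 and were not called. Zcchc12 (0.46 ± 0.08), Eomes (0.20 ± 0.06) and Nos1 passed the test on both sides of the split, and Opn4, Col9a1, Tbx20 and Cd24a passed it within the M1 types and not outside them. The difference between the 2 sides was not tested.

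Chat was spread over all 45 types. Per retina it gave 0.289, 0.281, 0.278, 0.218 and 0.283 puncta per cell, and retina 4 was the lowest. Puncta were found in 21536 cells (16.4%), of which 6760 held 2 or more and 942 held 5 or more, up to 26. With each cell thinned to 100 puncta, the share was 7.11% ± 0.46 (SD, n = 5). The 3.19-fold span between the highest and the lowest type compares with 20.4-fold for Th.

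The highest type was 41_AlphaONT, an ON alpha type with transient responses, at 0.475, 0.687, 0.690, 0.333 and 0.694 puncta per cell in retinas 1 to 5. Its mean of 0.576 ± 0.165 was 2.17 times the median type. It was followed by 32_F_Novel at 0.396 ± 0.063, 40_M1dup at 0.390 ± 0.093, 20_Novel at 0.345 ± 0.098, 28_FmidiOFF at 0.343 ± 0.079 and 10_Novel at 0.336 ± 0.082. The 4 lowest were 19_Novel at 0.194 ± 0.037, 39_Novel at 0.192 ± 0.028, 43_AlphaONS at 0.187 ± 0.067 and 07_Novel at 0.181 ± 0.019. The step from 41_AlphaONT to 32_F_Novel exceeded the SD of the paired differences, in 5 of 5 retinas, and no other of the 44 steps did. Of the 4 alpha types, ON transient was the highest and ON sustained the lowest. Types differ in depth, and per 1000 puncta 10_Novel (median depth 391) ranked 27 of 45 and 01_W3D1.1 (median depth 188), which ranked 30 per cell, ranked 4. On that scale 41_AlphaONT still ranked 1 and 43_AlphaONS ranked 45.

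Tested against the other types, Chat was higher in 8 types and lower in 7, again fewer than the median gene, which was higher in 14 and lower in 19. The largest rise was 0.83 ± 0.11 in 41_AlphaONT (SE, edgeR adjusted p = 1.19e-12). Then came 32_F_Novel (0.44 ± 0.09), 28_FmidiOFF (0.38 ± 0.10), 40_M1dup (0.38 ± 0.12), 20_Novel (0.33 ± 0.11), 15_Novel (0.31 ± 0.09), 01_W3D1.1 (0.26 ± 0.08) and 21_Tbr1_S2 (0.21 ± 0.09). The types called lower were 39_Novel (-0.53 ± 0.12), 22_M5 (-0.46 ± 0.12), 07_Novel (-0.45 ± 0.10), 19_Novel (-0.33 ± 0.12), 34_Novel (-0.32 ± 0.10), 43_AlphaONS (-0.32 ± 0.11) and 05_J-RGC (-0.21 ± 0.09). Chat did not pass the test in 33_M1 (edgeR adjusted p = 0.997), where Th was high. Its log2 change there was 0.38 ± 0.11 (edgeR adjusted p = 0.00154) with totals of counts in place of TMM scaling.

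The genes whose type pattern was most like that of Chat, by Pearson's r over the 45 types of log2(puncta per 1000 puncta + 0.01), were Gad1 (0.85), Tfap2a (0.85), Tfap2b (0.81), Cxcl14 (0.75) and Amigo2 (0.74). Those most like Th were Zcchc12 (0.85), Fxyd6 (0.82), Tac2 (0.82), Cd24a (0.81) and Cngb1 (0.76). The types share retinas, sections and depth, so these values are descriptions. Without the M1 types, over 43 types, the Chat values stayed between 0.74 and 0.85, and the Th values were 0.62, 0.69, 0.55, 0.46 and 0.57.

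Cells with Chat differed from cells without it in 110 of 299 genes (36.8%), with 51 higher (17.1%) and 59 lower (19.7%) by the same test. Without retina 5, 71 genes were called. The neuropeptide Y gene Npy led, with a log2 change of 1.61 ± 0.08 (SE). Gad1 had 3.33, 4.07, 3.85, 2.95 and 4.07 puncta per 1000 puncta in cells with Chat of retinas 1 to 5, against 1.64, 1.77, 1.95, 1.47 and 1.84 in cells without. These groups did not overlap, and Gad1 rose by 1.07 ± 0.03 on the log2 scale (edgeR adjusted p = 5.04e-11). Tfap2b, a starburst and amacrine factor, averaged 2.44 ± 0.22 with Chat and 1.41 ± 0.12 without, a rise of 0.80 ± 0.04. Isl1, a LIM factor of starburst cells that ganglion cells also make, averaged 5.08 ± 0.27 with Chat and 4.54 ± 0.15 without, a rise of 0.16 ± 0.02.

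The other leading genes with Chat were Gpr179 (0.90 ± 0.09), an orphan receptor gene of ON bipolar cells, Tnnt1 (0.88 ± 0.13), the metabotropic glutamate receptor gene Grm3 (0.79 ± 0.06), the helix-loop-helix factor gene Nhlh2 (0.73 ± 0.03), Igfbp7 (0.67 ± 0.09), the potassium channel beta subunit gene Kcnab1 (0.66 ± 0.04) and Tfap2a (0.62 ± 0.03). Of the 20 amacrine genes, 8 were higher with Chat, among them Npy, Gad1, Tfap2b, Tfap2a and Cck, beside 17.1% of all 299 genes. Another 2 were lower (Ppp1r17 and Gjd2), beside 19.7% of all 299 genes. The median log2 change of the 20 genes was 0.07, against -0.03 over all 299. Their summed level ran from 66.7 to 70.3 puncta per 1000 puncta in cells with Chat and from 61.4 to 64.7 in cells without. Of 7 ganglion cell genes, 3 were lower (Isl2, Rbpms and Pou4f3), beside 19.7% of all 299 genes, and none was higher. The part of these markers in the Chat levels was not tested. Median depth was 336 puncta with Chat and 297 without.

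The falls with Chat were small. Gsg1 fell by 0.42 ± 0.10, Gabrr1, a GABA receptor subunit gene of bipolar cells, by 0.26 ± 0.09 and the calcium channel subunit gene Cacna2d4 by 0.22 ± 0.07. Tbx20 (-0.22 ± 0.04), Spp1 (-0.21 ± 0.04), Tpbg (-0.20 ± 0.06), Cd9 (-0.19 ± 0.05), Scn4b (-0.18 ± 0.03), Tacr3 (-0.18 ± 0.07) and Igfbp2 (-0.18 ± 0.06) followed. Th did not pass the test in cells with Chat (-0.17 ± 0.09, edgeR adjusted p = 0.161), nor Chat in cells with Th (-0.05 ± 0.09, edgeR adjusted p = 0.724). Of the genes that rose, 15 were shared by both tests, among them Gad1, Tfap2a, Tfap2b, Slc32a1 and Tac2. They were 29.4% of the 51 for Chat, beside 21.7% of all 299 genes higher with Th. They were 23.1% of the 65 for Th, beside 17.1% of all 299 genes higher with Chat.

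**Figure D3:**
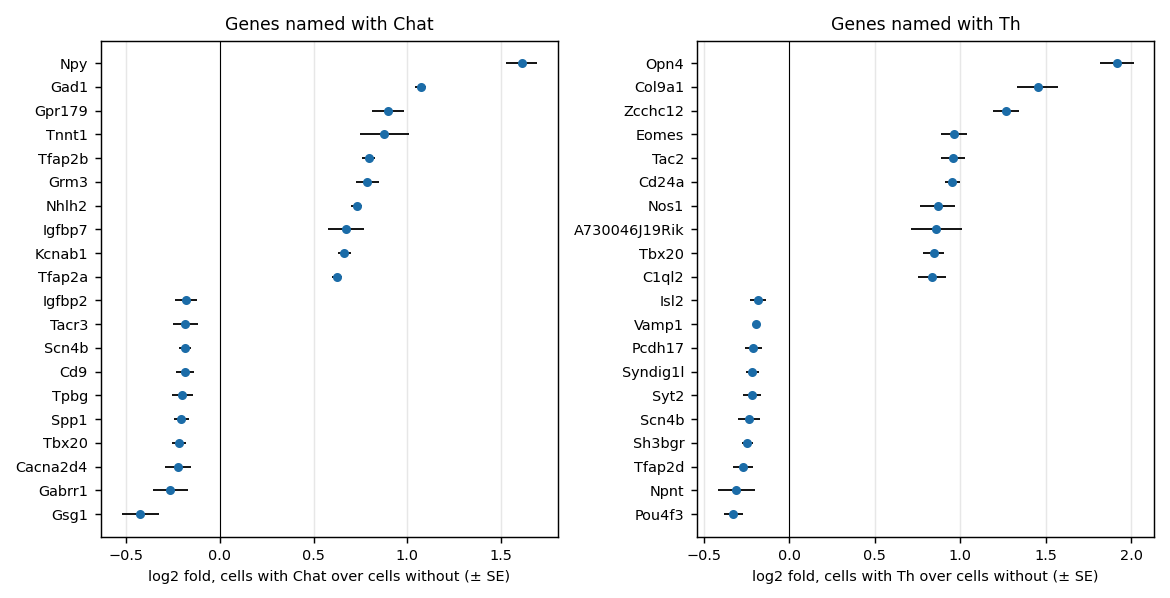
Log2 fold change (x axis, error bars SE, 5 retinas) of the genes named by rule in cells with Chat over cells without (left) and in cells with Th over cells without (right). Npy and Gad1 lead with Chat, and Opn4 and Col9a1 lead with Th.

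The 942 cells with 5 or more Chat puncta lay in all 45 types and 33 of 41 sections. Gad1 was found in 91.5% of them and in 35.2% of all other cells, and Tfap2b in 81.8% of them and 30.4% of all other cells. They were deeper, with a median of 427.5 puncta against 303. Per 1000 puncta they held 15.9 ± 0.9 of Rbpms, against 20.3 ± 0.9 in all other cells, and 29.7 ± 2.0 of Slc17a6, against 35.4 ± 1.5 (SD, n = 5). In the 39 cells high in Th, 23 of them M1 cells, these levels were 9.51 ± 2.53 and 15.9 ± 1.2.

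Across the 27 sections of 1000 or more cells, Chat ranged from 0.321 to 1.42 puncta per 1000 puncta. Sections rich in Chat were rich in Gad1, with Pearson's r = 0.96 over the 27 sections, 0.96 within retina 1, 0.63 within retina 2 and 0.95 within retina 4. With Tfap2b the r of Chat was less even, at 0.66 over the 27 sections, 0.96 within retina 1, 0.42 within retina 2 and 0.21 within retina 4. Retinas 3 and 5 had too few sections for a value. Sections of a retina share the animal and in part the slide, so these are descriptions. Th ranged from 0.0463 to 0.164. Its r with Opn4 was 0.34 over the 27 sections, 0.63 within retina 1, 0.66 within retina 2 and -0.52 within retina 4. The 14 smaller sections, with 3757 cells in all, had a median Th level of 0.196. The highest level, 1.65, came from a section of 77 cells with 26 Th puncta. The highest M1 share, 26.2%, came from another section, of 65 cells. Without the 14 smaller sections, Th was 0.269 ± 0.092 puncta per cell in 40_M1dup and 0.169 ± 0.042 in 33_M1. The value of retina 4 in 40_M1dup was then 0.20 in place of 0.320.

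**Figure D4:**
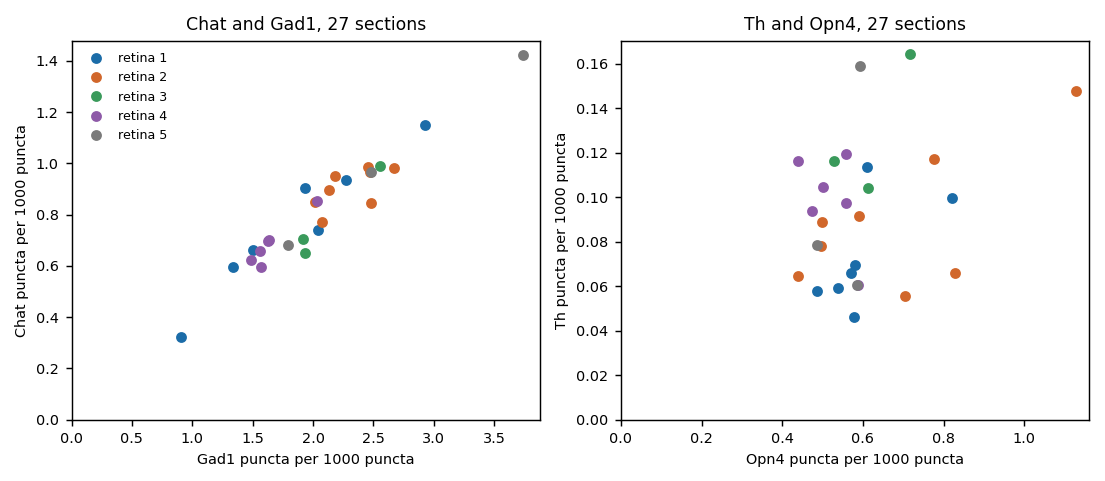
Each point is 1 of 27 sections of 1000 or more cells, coloured by retina, with Chat against Gad1 (left) and Th against Opn4 (right), all in puncta per 1000 puncta. Chat climbs with Gad1 across sections (r = 0.96), while for Th against Opn4 r is 0.34 over all sections, 0.63 and 0.66 within retinas 1 and 2 and -0.52 within retina 4.

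By position, Chat was lower in the periphery of the retina. Per 1000 puncta it was 0.768, 0.856, 0.847, 0.659 and 0.825 in the periphery of retinas 1 to 5 (scaled radius 0.5 or more), against 1.03, 0.972, 0.948, 0.801 and 0.911 in the centre. It was lower in 5 of 5 retinas, though values of different retinas overlapped, and the log2 change was -0.26 ± 0.05 (SE, edgeR adjusted p = 0.0346). Of the 300 genes, 20 (6.67%) were called, 10 of them lower (3.33%). In 5 rings from the centre outwards, Chat averaged 1.01 ± 0.19, 0.925 ± 0.097, 0.893 ± 0.096, 0.769 ± 0.071 and 0.750 ± 0.115. Gad1, which moved with Chat across sections, was at -0.23 ± 0.09 (edgeR adjusted p = 0.160), lower in 4 of 5 retinas. Npy was at -0.24 ± 0.10 (edgeR adjusted p = 0.164), also lower in 4. Tfap2b was at -0.12 ± 0.11 (edgeR adjusted p = 0.468), lower in 2. The summed amacrine genes were 64.4 ± 1.3 puncta per 1000 puncta in the periphery and 64.5 ± 1.1 in the centre. Of that sum, Gad1 gave 1.97 and 2.31, Tfap2b 1.57 and 1.70 and Npy 0.17 and 0.20, so other genes made up most of it. The starburst genes Isl1 and Tfap2b summed to 6.17 ± 0.18 in the periphery and 6.39 ± 0.33 in the centre, the Müller glia genes to 6.45 ± 1.00 and 5.68 ± 0.84 on the same sides, and the rod genes to 4.83 ± 1.78 and 3.78 ± 1.49. Their part in the Chat change was not tested. The call was lost without retina 2 (-0.26, edgeR adjusted p = 0.129), without retina 4 (-0.24, edgeR adjusted p = 0.153), without retina 5 (-0.26, edgeR adjusted p = 0.0719) and without the cells of 5 or more Chat puncta (-0.22 ± 0.06, edgeR adjusted p = 0.053).

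Th had no radial call. It was at 0.0902 puncta per 1000 puncta in the periphery and 0.0949 in the centre, a log2 change of -0.12 ± 0.11 (edgeR adjusted p = 0.490), lower in 3 of 5 retinas. Opn4 was higher in the periphery in 5 of 5 retinas (0.55 ± 0.07, edgeR adjusted p = 0.0105). With the section as a block in place of the retina, Th fell by 0.33 ± 0.10 (edgeR adjusted p = 0.0185), but that fit takes sections as units although they come from only 5 retinas. The innermost ring had 0.120 ± 0.020 Th puncta per 1000 puncta and the other 4 rings had 0.0833 to 0.0937.

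**Figure D5:**
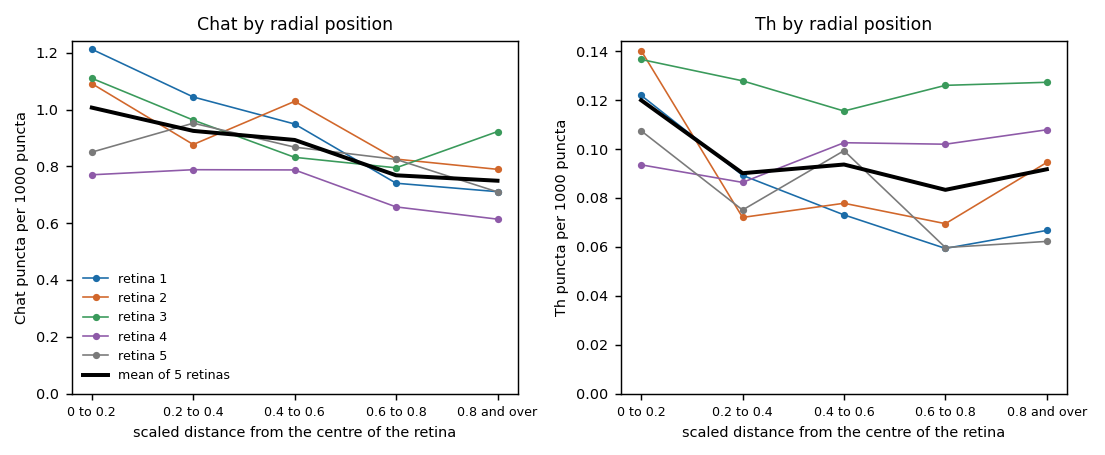
Puncta per 1000 puncta of Chat (left) and Th (right) in 5 rings of scaled distance from the centre of the retina (x axis), with 1 thin line per retina and the mean of 5 retinas in black. The mean of Chat declines from 1.01 to 0.750, and that of Th lies at 0.120 in the innermost ring and between 0.0833 and 0.0937 elsewhere.

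Within types, none of the 40 types tested had a radial change of Chat past the threshold by edgeR or by DESeq2, while 239 of all 10227 pairs of type and gene were called (2.34%). At an unadjusted p under 0.05, 12 of 40 types were lower, beside 6.34% of all pairs, and 36 of 40 changes were below 0, beside 48.9% of all pairs, with a median of -0.26. The largest was -0.63 ± 0.23 in 39_Novel (edgeR adjusted p = 0.169). For Th, 7 types passed the filter on low counts and none was called by edgeR or by DESeq2. The value in 33_M1 was -0.85 ± 0.27 (unadjusted p = 0.0109, edgeR adjusted p = 0.151), the 1 of 7 with an unadjusted p under 0.05. With each type given equal weight on both sides, so that the mix of types was the same, Chat was 0.262, 0.270, 0.254, 0.209 and 0.267 puncta per cell in the periphery, against 0.378, 0.300, 0.300, 0.238 and 0.292 in the centre. Its log2 change was -0.25 ± 0.07 (limma adjusted p = 0.331) and that of Th was -0.18 ± 0.09 (limma adjusted p = 0.463). In that test limma called 0 of 300 genes, and 40 had an unadjusted p under 0.05.

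Neither gene was called along the X or Y axis, whose anatomical directions the labels do not give. Along X, from values of 0 or more over values under 0, Chat was at 0.01 ± 0.06 (edgeR adjusted p = 0.889) and Th at -0.10 ± 0.07 (edgeR adjusted p = 0.417), while 30 of 300 genes were called (10%). Along Y, Chat was at 0.14 ± 0.10 (edgeR adjusted p = 0.587) and Th at -0.06 ± 0.11 (edgeR adjusted p = 0.836). No gene was called along Y by edgeR, with 29 at an unadjusted p under 0.05, and DESeq2 called 6.

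Cells with each gene more often had a nearest cell that held it, in 5 of 5 retinas for both genes. With all cells thinned to 100 puncta, the nearest cell of the section held Chat beside 10.5% ± 1.2 of cells with Chat and beside 6.79% ± 0.41 of cells without (SD, n = 5). The log2 odds ratio, pooled over sections, was 0.63 ± 0.15 and above 0 in 5 of 5 retinas (exact two-sided sign-flip permutation p = 0.0625, the smallest that 5 retinas allow). For Th the shares were 2.01% ± 0.70 and 0.90% ± 0.19, with a log2 odds ratio of 0.98 ± 0.53, also above 0 in 5 of 5 retinas (exact p = 0.0625). The median over the 300 genes was 0.33, with Th ranked 65 and Chat 93. With the nearest cell of another type, Chat was at 0.63 ± 0.14 and Th at 0.97 ± 0.54. Neighbours were found from the x and y positions, with the height in the section left out. They lay at a median of 9.72 units of the deposited positions, whose unit is not stated.

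Co-detection of Chat and Th within cells did not pass the test. In thinned cells 85 held both, against 82.8 given by their separate shares. The log2 odds ratio was 0.11 ± 0.37 and above 0 in 2 of 5 retinas (exact two-sided sign-flip permutation p = 0.625).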

How the data were processed

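Puncta of 300 genes were counted per cell with Xenium in en face sections of 5 wild-type mouse retinas. Per the file headers, the deposited values are whole puncta counts per gene and cell, and they were used with no normalization beforehand. Scaled positions are a deposited score without a unit, per the file headers. The sources used here do not say how cells were outlined, filtered and typed. The values showed that each cell held at least 100 puncta. The 4 deposited samples are pairs of slides that no label ties to a retina, so the retina (n = 5) was the replicate. Of 8 slides, 2 hold sections of 2 retinas each. Whether the retinas came from separate animals is not stated. The p-values of the blocked fits rest on how differences within a retina vary from retina to retina. In the type fits that spread is pooled over the sums of all types and retinas.

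Counts were summed per retina and side, type (20 cells or more) or gate (1 or more puncta of Chat or Th over none). They were fitted with edgeR 4.0.16 in R 4.3.3, with TMM scaling, filterByExpr, the retina as a block and Benjamini-Hochberg adjustment at 0.05. The retina block rests on each retina giving both sides of every comparison. DESeq2 1.42.0 was an alternative. Same-mix differences used limma 3.58.1. Neighbour and co-detection odds ratios used cells thinned to 100 puncta and exact sign-flip permutation tests. Levels are per cell or per 1000 puncta. Puncta of different genes depend on their probes and were not compared. The fits were tested on simulated data.

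The genes, lists, types and tests were chosen with earlier results of these data known. Named types were the 6 highest and 4 lowest of 45 for each gene. Named genes of a gate were up to 10 in each direction with the largest called changes, the same way in 5 of 5 retinas and with 100 or more puncta. The lists cover amacrine, starburst amacrine, dopaminergic amacrine, bipolar, horizontal, rod, cone, Müller glia, astrocyte, microglia, endothelium, pericyte and ganglion cell genes. With Chat, horizontal genes were 1 higher and 2 lower of 7, bipolar 2 and 3 of 15, rod 1 and 0 of 4, cone 0 and 1 of 3 and Müller 2 and 0 of 7, beside 17.1% higher and 19.7% lower over all 299 genes. No dopaminergic amacrine, astrocyte, microglia, endothelium or pericyte gene was called with Chat. With Th, horizontal genes were 2 higher and 1 lower of 7, starburst genes 1 and 0 of 3, microglia 1 and 0 of 2 and pericyte 0 and 1 of 2, beside 21.7% higher and 17.4% lower. Depth limits single values, since intervals from puncta cover counting error alone.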

Additional observations from a re-analysis of the deposited data

Results flagged for a closer look

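Among 31 sets of 5 retina values, 2 had a retina far from the other 4 by Dixon's criterion, and chance gives about 1 in 20. Th in 36_Novel was 0.0255 puncta per cell in retina 3, above 0.0120 to 0.0159 in the other retinas. Th in 35_Novel was 0 puncta per cell in retina 3, below 0.0154 to 0.0186 in the other retinas. That 0 rests on 26 cells, in which a count of 0 allows up to 0.115 puncta per cell.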

How the results depend on the processing

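Th kept its rise in 40_M1dup and 33_M1 under all alternatives run for the types. The radial fall of Chat kept its direction in all 15 alternatives and lost its call with no replicate block (-0.25, edgeR adjusted p = 0.364), without cells of 5 or more Chat puncta (-0.22) and with the split at 0.7 (-0.19), and ran from -0.27 to -0.22 when a retina was left out. The radial change of Th was called with the section as a block (-0.33) and ran from -0.16 to -0.05 without a retina. Uncalled X and Y values changed sign: Chat along X with the section as a block (-0.11) and without cells of 5 or more Chat puncta (-0.0218), Th along X with the section as a block (0.12) and Th along Y without the 2 types highest in Th (0.0476). Without a retina, X ran from -0.0463 to 0.0574 for Chat and from -0.13 to -0.07 for Th, and Y from 0.05 to 0.23 for Chat and from -0.11 to 0.0423 for Th.

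Types with Th higher were 7 with totals in place of TMM and 2 with no replicate block, and 3 or 4 without a retina. Types with Th lower were 3 with DESeq2, 3 with no filter and 1 with no replicate block, and 1 to 4 without a retina. Types with Chat higher were 6 to 8 and lower 6 or 7 without a retina. Genes called with Chat were 18 with no replicate block, 184 with type as a further block (42 higher and 142 lower) and 4 in M1 cells, and 71 to 108 without a retina. Genes called with Th were 30 with no replicate block, 77 at 2 or more puncta, 75 at 3 or more, 24 in M1 cells and 76 outside them, with 27 higher and 98 lower with type as a further block, and 93 to 114 without a retina. Types with a radial change of Chat were 0 or 1 without a retina. The gate fits with type as a further block and in M1 cells take several sums of 1 retina as units.

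The co-detection value turned to -0.00220 with odds ratios pooled over types and ran from -0.0321 to 0.19 without a retina. The neighbour value at 2 or more puncta was 1.17 for Chat and 3.01 for Th, and without a retina ran from 0.59 to 0.68 and from 0.87 to 1.19. The same-mix change ran from -0.28 to -0.18 for Chat and from -0.24 to -0.09 for Th without a retina. The causes were not tested.

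Among named genes and types, the sign turned for Chat in 33_M1 with totals (0.38) and with no replicate block (0.00134), and ran from -0.17 to 0.0754 without a retina. With Chat it turned for Igfbp7 in M1 cells (-0.0283), Cacna2d4 thinned (0.0747) and Tbx20 with type as a block (0.0748) and in M1 cells (0.0170). With Th it turned for Npnt thinned (0.13) and, in M1 cells, for Sh3bgr (0.00887) and Isl2 (0.0467). The splits by M1 cells and section size and the same-mix fit per 1000 puncta (Chat -0.25, limma adjusted p = 0.0807, 0 genes called and 71 at an unadjusted p under 0.05) were chosen after seeing the data. Low Th counts limit its values by type and ring.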
